A study of Mus musculus with 15 samples.

Results

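Sprouty and Spred proteins and the dual-specificity phosphatases (DUSPs) restrain mitogen-activated protein kinase (MAPK) signalling, and 10 of their genes were followed here: Spry1, Spry2, Spred1, Spred2, Dusp1, Dusp2, Dusp4, Dusp5, Dusp6 and Dusp10. The genes were chosen by name and function, and all 10 were found among the 17493 genes of the count tables. The list was drawn up with an earlier result of the same libraries known, the difference in Spry1 between the 2 stimuli. Differences between the 2 stimuli are therefore given for these genes as a description, with no p-value.

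When a T cell receptor binds its peptide on an MHC molecule, Ras is loaded with GTP and the kinases Raf, MEK and ERK are activated in turn. Parallel cascades end in the kinases JNK and p38. Sprouty and Spred proteins act on the upper part of this route, at the level of adaptors, Ras and Raf. DUSPs of the MAPK phosphatase class act on its end, by removing the phosphates from the activation loop of ERK, JNK or p38. Several of these genes are themselves induced by MAPK signalling, which is why they are described as feedback regulators, and their transcripts are often read as a record of recent signalling in lymphocytes.

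RNA was measured by an adapted form of CEL-seq, a method that barcodes each sample at reverse transcription and counts the 3′ ends of transcripts. There were 15 bulk libraries of CD8+ OT-I T lymphocytes taken from the spleen and lymph nodes of female mice, strain OT-1, also given as C57BL/6-Tg(TcraTcrb)1100Mjb/Crl, whose T cells bear 1 transgenic T cell receptor that recognises ovalbumin. Age was not given in the sources used here. One group of 3 libraries was untreated at 0 h. In 2 groups of 3, taken at 8 h and 22 h, the cells had been stimulated with immunofilaments (IF), synthetic filaments that carried MHC loaded with the peptide SIITFEKL together with interleukin-2 (IL-2), at 5 ng/ml. In the other 2 groups of 3, taken at the same times, the stimulus was 20000 Flt-3Ligand dendritic cells (DC) pulsed with SIITFEKL. Stimulated wells held 50000 T cells, and viable CD8+ CD103- cells were sorted for RNA. IL-2 was named for IF alone and untreated cells were taken at 0 h alone, so the carrier and IL-2, and stimulation and time in culture, cannot be told apart. In these bulk samples fewer cells of a type and less RNA per cell cannot be told apart either. The sample titles number the replicates as Don1, Don2 and Don3 in each of the 5 groups, and do not say what Don stands for or whether the same source recurs across groups. They are called replicates 1 to 3 here, and p-values measure only the spread between these samples.

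Library totals ran from 2892874 to 19806730 counts. IF 22 h replicates 2 and 3 stood apart from the others: mitochondrial ribosomal RNA made up 0.179% and 0.146% of their counts, against 1.82% to 4.49% in the other 13 libraries. Most differences of single genes that rest on IF at 22 h are therefore also given without these 2 libraries. They come from a fit in which the 1 remaining IF 22 h library is assumed to vary like the other groups. Group means, correlations, medians over lists and shares of all genes are given with the 2 libraries alone included. The T cell genes fitted the label, with a summed level over the 5 listed genes of 5899 to 6552 CPM (counts scaled to a common library size) at 0 h and 2578 to 4391 CPM after stimulation. Cd4 was at 0 in every library but 1 of IF at 22 h, where it reached 1.48 CPM. All 18 listed dendritic cell markers were in the tables, and their summed level was 212 to 469 CPM in IF and 851 to 1239 CPM in DC libraries at 8 h, and 372 to 629 CPM and 468 to 640 CPM at 22 h. Untreated libraries, which had met no added dendritic cells, had 648 to 1543 CPM, and Zbtb46 and Ccl17 were at 0 there. At 8 h Zbtb46 and Batf3 were at 0 in all IF libraries, while none of the 18 was at 0 throughout the DC libraries. Fscn1, a gene of mature dendritic cells, was at 0.268 to 0.663 CPM with IF and 126 to 168 CPM with DC at 8 h, and at 5.83 to 43.8 CPM and 72.9 to 94.8 CPM at 22 h. Ccl22 and Zbtb46 were likewise higher in all DC than in all IF libraries at both times. Other markers of the list did not follow them. Xcr1 and Clec9a overlapped between IF and DC at both times. Xcr1 was highest in untreated libraries, at 9.54 to 45.6 CPM, and at 22 h reached 2.96 CPM with IF and 0.256 CPM with DC. Of 8 listed B cell markers 6 were in the tables, with summed levels of 9.10 to 42.1 CPM in IF and 6.33 to 18.4 CPM in DC libraries at 8 h, 26.0 to 45.4 CPM and 6.42 to 21.6 CPM at 22 h, and 28.0 to 30.5 CPM in untreated libraries. Itgae, which encodes CD103, was lower in IF (10.7 to 19.98 CPM) than in DC libraries (27.0 to 42.9 CPM) at 8 h, overlapped at 22 h, and stood at 32.1 to 59.8 CPM in untreated libraries. The part of these markers in the differences below, between IF and DC or against untreated cells, was not tested.

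Promoter sequences are shown for the 4 genes on which the results turn. In Spry1, Dusp2 and Dusp6 the IF libraries lay wholly above the DC libraries at 22 h. The same held for Spred1, whose sequence is not shown. Dusp1 was, of the 9 tested genes, the one that fell most in each comparison with untreated cells. Each run is the 250 bases before the RefSeq transcription start (build GRCm38.p6), 5′ to 3′ on the strand of the gene. They lie at chr3:37639697-37639946 (Spry1, plus strand), chr2:127335909-127336158 (Dusp2, plus strand), chr10:99262981-99263230 (Dusp6, plus strand) and chr17:26508473-26508722 (Dusp1, minus strand). Capitals mark the only match in these 4 runs to any of 5 motifs: AP-1 (TGANTCA), the cAMP response element or CRE (TGACGTCA), EGR (GCGTGGGCG), ETS (CCGGAAGT) and the serum response CArG box.

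Spry1: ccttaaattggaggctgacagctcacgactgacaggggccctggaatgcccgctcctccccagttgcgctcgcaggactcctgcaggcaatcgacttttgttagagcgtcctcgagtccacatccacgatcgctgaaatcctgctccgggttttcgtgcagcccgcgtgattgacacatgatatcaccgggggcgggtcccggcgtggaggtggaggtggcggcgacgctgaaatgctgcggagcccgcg

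Dusp2: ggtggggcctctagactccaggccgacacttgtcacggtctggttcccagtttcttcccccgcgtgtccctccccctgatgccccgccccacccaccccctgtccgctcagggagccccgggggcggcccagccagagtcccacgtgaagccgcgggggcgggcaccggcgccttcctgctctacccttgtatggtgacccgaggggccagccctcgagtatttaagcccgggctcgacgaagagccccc

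Dusp6: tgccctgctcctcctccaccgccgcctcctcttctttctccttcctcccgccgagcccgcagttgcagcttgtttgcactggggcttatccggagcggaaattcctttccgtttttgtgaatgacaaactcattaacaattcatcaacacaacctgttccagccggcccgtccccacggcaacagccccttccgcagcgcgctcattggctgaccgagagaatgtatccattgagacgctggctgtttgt

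Dusp1: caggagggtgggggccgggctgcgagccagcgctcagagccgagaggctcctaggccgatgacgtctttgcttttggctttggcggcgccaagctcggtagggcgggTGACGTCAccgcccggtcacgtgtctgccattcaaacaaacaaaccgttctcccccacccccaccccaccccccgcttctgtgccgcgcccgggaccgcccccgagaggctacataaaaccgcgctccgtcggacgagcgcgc

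The capitals in Dusp1 are a CRE, 143 bases before the start. RefSeq promoters were matched for 9 of the 10 genes, all but Dusp4, and both strands of the window from 250 bases before to 50 bases after the start were searched. A CRE was present in 1 of the 9, against 1.79% of all 32851 promoters of that length. The CArG box, the site of serum response factor, was found in Dusp5 alone, as an adjoining pair 82 and 72 bases before the start, and in 1.63% of all promoters. AP-1 (7.81% of all promoters), EGR (0.612%) and ETS (3.89%) letters were in none of the 9 windows. The short core of NFAT sites (GGAAAN, not capitalised) was in 6 of the 9 windows and in 61.2% of all promoters. Among the 4 genes shown it was in Dusp6, before the start, and in Dusp1, only after the start and so outside the run shown. All 9 windows were richer in G and C (57.0% to 72.3%) than the median promoter (52.7%).

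Levels are given as CPM scaled by the trimmed mean of M values (TMM), and are compared between libraries and not between genes. Differences are log2 fold changes ± SE from edgeR's quasi-likelihood fit to all 15 libraries. A gene passed the test where its p-value, adjusted by Benjamini-Hochberg over the 10831 genes tested, was under 0.05. Of the 10 genes 9 were abundant enough to be tested. Dusp5 was not, with 50 counts in all 15 libraries and at most 7 in any.

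Spry1 encodes an inducible inhibitor of receptor signalling to Ras and ERK, and of the 9 tested genes it had the widest range of group means. The gene lies at chr3:37639947-37644598 (plus strand, 5 distinct exons in GENCODE vM21, GRCm38). It was nearly silent at 0 h, with 0.294, 0.362 and 0 CPM in replicates 1 to 3, which is 4 counts in all. After 8 h it stood at 33.9, 25.5 and 9.91 CPM with IF and at 2.08, 1.74 and 0.147 CPM with DC. Every IF library was thus above every DC library, and the lowest IF value was several times the highest DC value. At 22 h the values were 14.8, 32.6 and 40.1 CPM with IF and 0.683, 1.22 and 2.48 CPM with DC. The groups again did not overlap, and IF replicate 1, the library not set apart by its mitochondrial RNA, was the lowest of its group and still above all DC libraries.

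**Figure D1:**
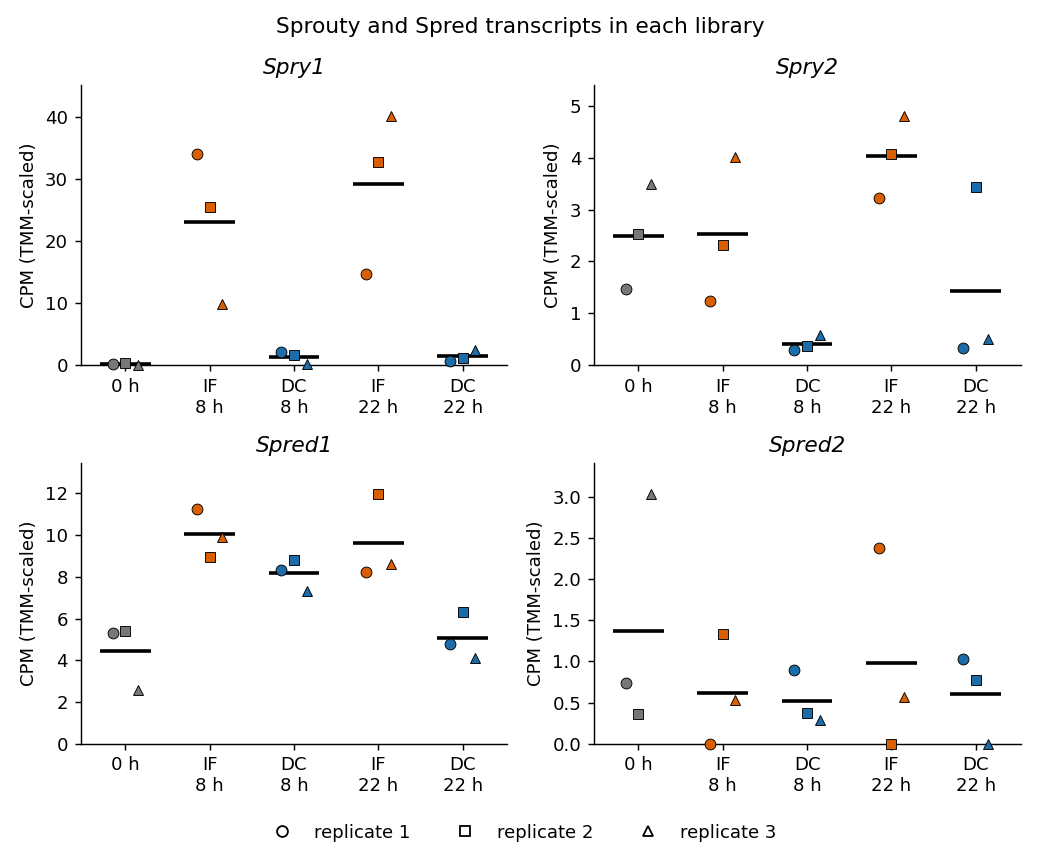
TMM-scaled CPM (vertical axes, each from 0) of the Sprouty and Spred genes in each library. Points are libraries, their shapes the replicate number and black lines the means of 3; orange is IF, blue DC and grey untreated cells. Spry1 reached 9.91 to 40.1 CPM in the 6 IF libraries and at most 2.48 CPM in the other 9.

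Against untreated cells Spry1 rose with IF at both times, with adjusted p = 0.000205 at 8 h and 0.000134 at 22 h. Because the untreated libraries hold so few counts, the size is given as a ratio of summed, library-scaled counts. The ratio was 102 at 8 h (95% exact interval 39.6 to 378) and 135 at 22 h (52.7 to 497), intervals that cover counting error only. Without IF 22 h replicates 2 and 3, which hold most of the counts of that group, the 22 h ratio was 61.4 (23.4 to 229), with adjusted p = 0.00981. With DC the ratio was 6.00 (2.15 to 23.2) at 8 h and 6.48 (2.37 to 24.8) at 22 h, and neither passed the test (adjusted p = 0.170 and 0.131). Without a low-count filter both passed, at adjusted p = 0.0137 and 0.00578. The IF minus DC difference on the log2 scale was 4.06 ± 0.65 at 8 h and 4.27 ± 0.64 at 22 h, and the change of that difference with time was 0.21 ± 0.88. Without IF 22 h replicates 2 and 3 the 22 h difference was 3.29 ± 0.79, and its change with time was -0.77 ± 1.10. Within a stimulus Spry1 did not pass the test between 8 h and 22 h, with 0.33 ± 0.54 in IF (-0.65 ± 0.86 without the 2 libraries) and 0.12 ± 0.68 in DC. Spry1 shares 710 exonic bases with Gm42922, a gene model on the opposite strand, and whether counting used strand is not given in the sources used here, so reads of the 2 models may be mixed.

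The genes whose log2 CPM followed Spry1 most closely over the 15 libraries, by Pearson's r, were Gpr174 (0.930), Myb (0.910) and Hbs1l (0.903). These values describe libraries that share the same 5 groups. Gpr174, a lysophosphatidylserine receptor gene on chromosome X, averaged 14.0 ± 2.52 CPM at 0 h (SD, n = 3), 40.0 ± 8.30 with IF and 19.9 ± 3.82 with DC at 8 h, and 41.3 ± 1.84 with IF and 16.8 ± 0.97 with DC at 22 h. Myb, a transcription factor gene, averaged 10.2 ± 3.88 CPM at 0 h, 87.1 ± 15.4 with IF and 21.4 ± 6.25 with DC at 8 h, and 122.9 ± 7.54 and 15.6 ± 5.38 at 22 h (SD, n = 3 each). Hbs1l lies, like Myb, on chromosome 10 and averaged 44.8 CPM at 0 h, 100.1 and 65.5 at 8 h, and 94.7 and 57.9 at 22 h, in IF and DC respectively. All 3 had their 2 highest group means in the IF groups, as Spry1 did, which follows largely from choosing them by their correlation with Spry1.

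Spry2, a second Sprouty inhibitor of Ras and ERK signalling, was scarce and did not pass the test in any of the 6 comparisons with untreated cells or between times. It lies at chr14:105891947-105896819 (minus strand, 2 exons). Its level was 1.47, 2.53 and 3.49 CPM at 0 h, 1.25, 2.32 and 4.02 CPM with IF at 8 h and 0.297, 0.373 and 0.587 CPM with DC at 8 h. All 3 DC libraries at 8 h were below all untreated and IF libraries. At 22 h it was 3.21, 4.06 and 4.80 CPM with IF and 0.341, 3.43 and 0.513 CPM with DC, where replicate 2 of DC fell within the IF range. The DC 8 h difference from untreated cells was -2.54 ± 0.87 (adjusted p = 0.0918), and DESeq2 put it past the threshold (adjusted p = 0.0361). IF minus DC was 2.56 ± 0.88 at 8 h and 1.50 ± 0.76 at 22 h (1.17 ± 1.15 without IF 22 h replicates 2 and 3).

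Spred1, which binds Ras-regulating proteins and dampens ERK activation, rose with IF at 8 h. The gene is at chr2:117121374-117182279 (plus strand, 9 distinct exons). Values were 5.29, 5.42 and 2.56 CPM at 0 h, 11.2, 8.95 and 9.91 CPM with IF at 8 h, and 8.32, 8.82 and 7.34 CPM with DC at 8 h. Every stimulated library at 8 h was above every untreated one. The log2 change was 1.17 ± 0.34 with IF (adjusted p = 0.0465) and 0.87 ± 0.34 with DC (adjusted p = 0.142). The IF call was close to the threshold and was lost in all 6 fits with a library of the groups compared left out, with adjusted p up to 0.157. At 22 h Spred1 stood at 8.21, 12.0 and 8.63 CPM with IF (1.10 ± 0.33 against 0 h, adjusted p = 0.0641) and 4.78, 6.30 and 4.10 CPM with DC (0.17 ± 0.34, adjusted p = 0.814). IF and DC libraries did not overlap at either time, with IF minus DC at 0.30 ± 0.33 and 0.92 ± 0.32. When IF 22 h replicates 2 and 3 were left out, the 22 h values were 0.88 ± 0.48 against untreated cells (adjusted p = 0.576) and 0.70 ± 0.48 for IF minus DC.

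Spred2, the relative of Spred1, lies at chr11:19924375-20024026 (plus strand) and had 87 counts over all libraries. It stood at 0.734, 0.362 and 3.03 CPM at 0 h, at 0, 1.33 and 0.536 CPM with IF at 8 h and at 0.891, 0.373 and 0.294 CPM with DC at 8 h. At 22 h it was 2.38, 0 and 0.562 CPM with IF and 1.02, 0.774 and 0 CPM with DC. Values were 0 to 3.03 CPM, with group means between 0.519 and 1.37 CPM. It was at 0 in 1 library each of IF at 8 h, IF at 22 h and DC at 22 h. The 2 groups of every comparison overlapped. With SEs of 1.35 to 1.60 for the log2 differences between 2 groups, changes of several fold could go undetected.

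Dusp1 encodes a nuclear phosphatase of p38, JNK and ERK and is a classical immediate-early gene. It was high at 0 h, with 111.7, 124.2 and 205.8 CPM, and low in all 12 stimulated libraries. At 8 h it was 9.46, 15.6 and 9.11 CPM with IF and 14.95, 9.56 and 15.3 CPM with DC. At 22 h it was 7.62, 6.57 and 7.04 CPM with IF and 5.24, 3.10 and 6.92 CPM with DC. Dusp1 fell in all 4 comparisons with untreated cells. The log2 changes were -3.71 ± 0.33 (IF, adjusted p = 4.43e-06) and -3.47 ± 0.32 (DC, 8.58e-06) at 8 h. They were -4.37 ± 0.33 (IF, 6.18e-07) and -4.84 ± 0.34 (DC, 3.23e-07) at 22 h, and -4.27 ± 0.56 (0.00218) for IF at 22 h without its replicates 2 and 3. IF and DC overlapped at both times, with IF minus DC at -0.24 ± 0.32 and 0.46 ± 0.32 (0.57 ± 0.47 without the 2 libraries). All libraries at 22 h lay below those of the same stimulus at 8 h, with differences of -0.66 ± 0.33 in IF (adjusted p = 0.351, and -0.55 ± 0.49 without the 2 libraries) and -1.37 ± 0.32 in DC (adjusted p = 0.0719, and 0.00611 in DESeq2). The gene model spans chr17:26505590-26562128 on the minus strand and shares 11 exonic bases with Ergic1 on the other strand.

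Dusp10, a phosphatase that acts on p38 and JNK, fell alongside Dusp1. It lies at chr1:184013302-184075636 (plus strand, 7 distinct exons). Levels were 57.1, 51.0 and 92.6 CPM at 0 h, 24.6, 31.8 and 11.8 CPM with IF at 8 h, and 24.9, 10.3 and 24.5 CPM with DC at 8 h. At 22 h they were 12.4, 14.0 and 13.4 CPM with IF and 17.0, 19.6 and 21.1 CPM with DC. All 12 stimulated libraries were below the 3 untreated ones, and at 22 h the IF libraries lay below the DC libraries without overlap (-0.54 ± 0.35, and -0.64 ± 0.54 without IF 22 h replicates 2 and 3). The log2 changes against 0 h were -1.56 ± 0.36 (IF, adjusted p = 0.0137) and -1.75 ± 0.35 (DC, 0.00570) at 8 h, and -2.33 ± 0.36 (IF, 0.000850) and -1.80 ± 0.35 (DC, 0.00448) at 22 h. The IF call at 8 h was lost without untreated replicate 3 (adjusted p = 0.0694) or IF replicate 3 (0.0620), and that at 22 h without IF replicates 2 and 3 together (-2.43 ± 0.59, 0.0700). Over the 15 libraries Dusp10 and Dusp1 had the highest correlation of log2 CPM among the 9 tested genes, r = 0.875, and both were highest in untreated replicate 3.

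**Figure D2:**
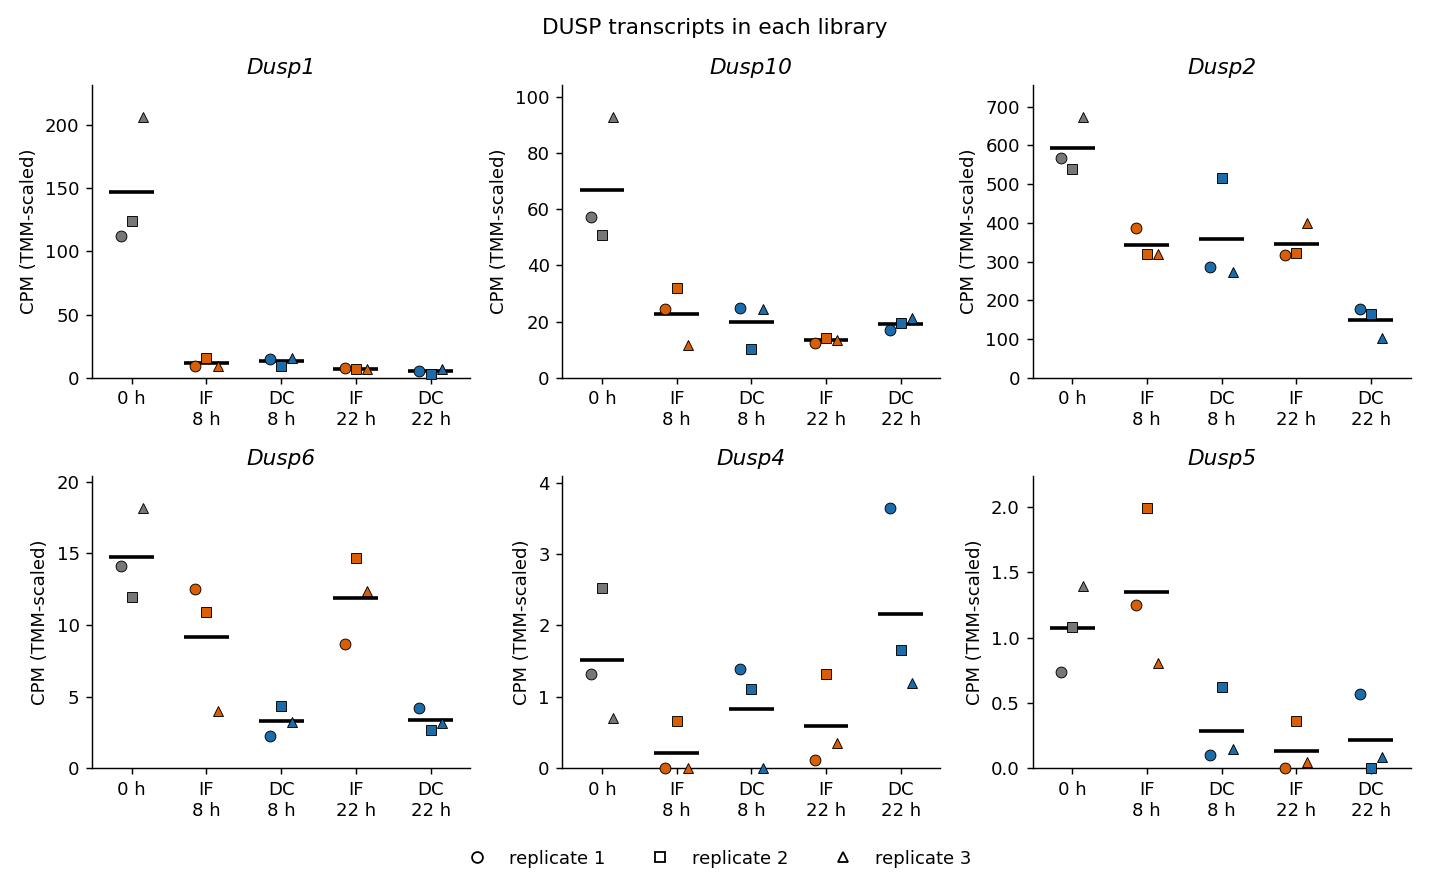
TMM-scaled CPM (vertical axes, each from 0) of the 6 DUSP genes in each library, drawn as for the Sprouty and Spred genes. Dusp1, Dusp10 and Dusp2 were highest in the 3 untreated libraries, and Dusp6 lay at 2.28 to 4.35 CPM in the 6 DC libraries.

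Dusp2, a nuclear phosphatase found mainly in immune cells, had 40367 counts over all libraries, and its log2 differences had the smallest SEs of the 9 genes. It lies at chr2:127336159-127338376 (plus strand, 6 distinct exons). Values were 568.1, 537.7 and 671.7 CPM at 0 h, 386.3, 319.3 and 319.1 CPM with IF at 8 h, and 285.8, 516.4 and 272.1 CPM with DC at 8 h. At 22 h it stood at 317.0, 321.1 and 398.3 CPM with IF and at 178.7, 165.4 and 102.6 CPM with DC. All 12 stimulated libraries were below the untreated ones, and the 3 DC libraries at 22 h were below all the others. Dusp2 fell with DC at 22 h (-1.99 ± 0.25, adjusted p = 0.000181). The other 3 log2 changes, -0.79 ± 0.24 (IF 8 h), -0.73 ± 0.24 (DC 8 h) and -0.78 ± 0.24 (IF 22 h), missed the threshold at adjusted p = 0.0534, 0.0797 and 0.0670. In DESeq2 these 3 passed, at adjusted p = 0.0197, 0.0394 and 0.0228. With IF 22 h replicates 2 and 3 left out, the IF 22 h change was -0.90 ± 0.36 (adjusted p = 0.371).

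From 8 h to 22 h Dusp2 fell with DC (-1.27 ± 0.24, adjusted p = 0.0283), a call that held when 1 library was left out in 2 of 6 such fits (adjusted p up to 0.0915). It was lost without DC 8 h replicate 1 or 2 or DC 22 h replicate 1 or 2, and in the fit of only these 2 groups (adjusted p = 0.306). With IF the difference between the times was 0.02 ± 0.24 (-0.10 ± 0.35 without IF 22 h replicates 2 and 3). IF minus DC was -0.07 ± 0.24 at 8 h and 1.22 ± 0.24 at 22 h. The change of that difference with time was 1.28 ± 0.34, and 1.16 ± 0.41 without IF 22 h replicates 2 and 3. The 22 h difference was 1.09 ± 0.33 without IF replicates 2 and 3.

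Dusp6 encodes a cytoplasmic phosphatase specific for ERK and is widely used as a transcript marker of ERK activity. It lies at chr10:99263231-99267489 (plus strand, 8 distinct exons). Levels were 14.1, 11.9 and 18.2 CPM at 0 h, 12.5, 10.9 and 4.02 CPM with IF at 8 h, and 2.28, 4.35 and 3.23 CPM with DC at 8 h. At 22 h they were 8.69, 14.7 and 12.4 CPM with IF and 4.21, 2.65 and 3.16 CPM with DC. All 6 DC libraries were below all untreated ones. IF 8 h replicate 3 lay within the DC range, and at 22 h IF and DC did not overlap. With DC Dusp6 fell at both times, by 2.16 ± 0.41 (adjusted p = 0.00378) at 8 h and by 2.13 ± 0.40 (adjusted p = 0.00375) at 22 h. With IF the changes were -0.67 ± 0.39 (adjusted p = 0.328) and -0.30 ± 0.38 (adjusted p = 0.715), the latter -0.76 ± 0.60 (0.736) without IF 22 h replicates 2 and 3. IF minus DC was 1.49 ± 0.41 at 8 h and 1.83 ± 0.40 at 22 h. Without IF replicates 2 and 3 the 22 h difference was 1.37 ± 0.55.

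Dusp4 and Dusp5, nuclear phosphatases that act on ERK and are induced by it in many cells, were barely detected. Dusp4 (chr8:34807297-34819894, plus strand) had 131 counts, with 1.32, 2.53 and 0.698 CPM at 0 h and 0, 0.663 and 0 CPM with IF at 8 h. It stood at 1.39, 1.12 and 0 CPM with DC at 8 h, at 0.119, 1.32 and 0.357 CPM with IF at 22 h and at 3.64, 1.66 and 1.20 CPM with DC at 22 h. The untreated libraries lay above the IF 8 h libraries by a count ratio of 9.65 (95% exact interval 2.42 to 83.9, counting error only), and the test across replicates was not passed (adjusted p = 0.234). Dusp5 (chr19:53529109-53542431, plus strand) stood at 0.734, 1.08 and 1.40 CPM at 0 h and at 1.25, 1.99 and 0.804 CPM with IF at 8 h. It stood at 0.0990, 0.621 and 0.147 CPM with DC at 8 h, at 0, 0.359 and 0.0510 CPM with IF at 22 h and at 0.569, 0 and 0.0855 CPM with DC at 22 h. These 9 libraries were all below the 6 libraries of untreated and IF 8 h cells. The count ratio of IF at 8 h to IF at 22 h was 11.8 (3.80 to 48.4), from 16 and 4 counts, all 4 of them in IF 22 h replicates 2 and 3. Dusp5 shares 547 exonic bases with AC137853.2, an antisense gene model, and reads of the 2 cannot be told apart without strand.

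**Figure D3:**
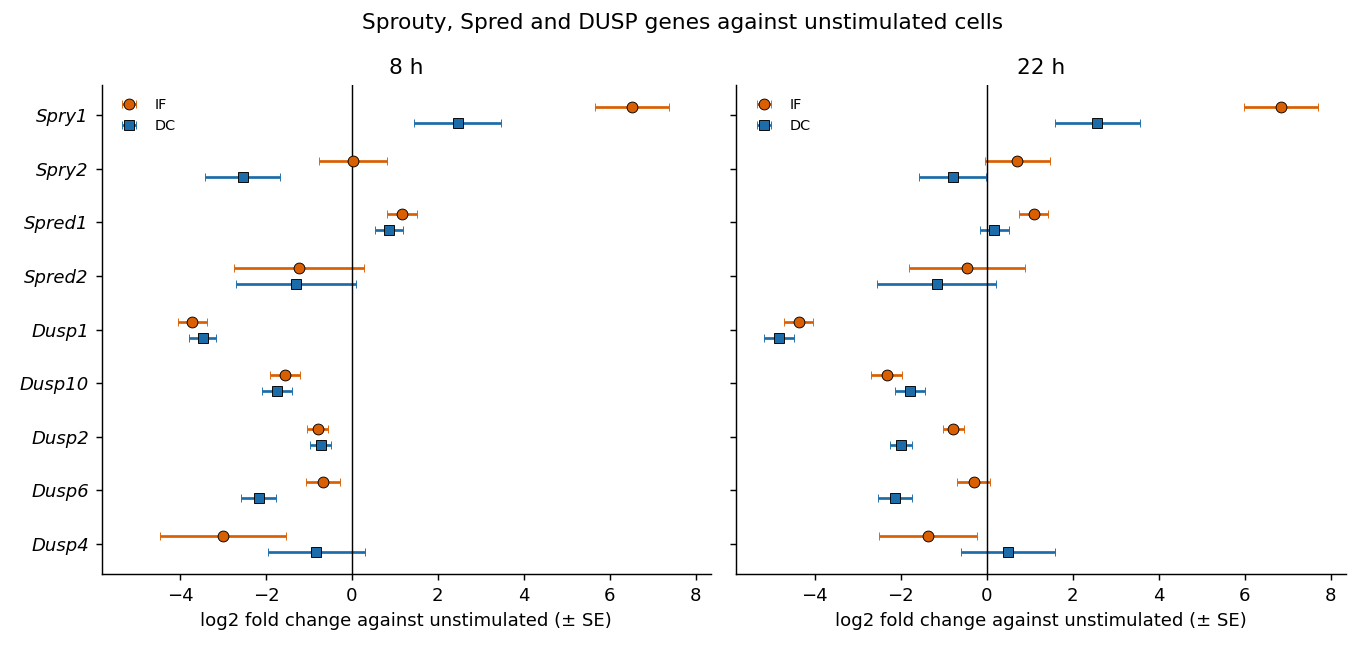
Log2 fold change against untreated cells (horizontal axis) for the 9 tested genes, at 8 h (left) and 22 h (right), with bars of 1 SE; circles are IF and squares DC. Dusp1, Dusp2, Dusp6, Dusp10 and Spred2 lie below 0 in all 4 comparisons, with bars that cross 0 for Spred2 and for Dusp6 with IF at 22 h. Dusp6 lies near -2 with DC at both times. The Spry1 values rest on 4 counts in untreated cells.

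Counted over the list, IF at 8 h raised 2 of the 9 tested genes (Spry1 and Spred1), where 3.04% of all tested genes were higher, and lowered 2 (Dusp1 and Dusp10), where 4.72% were lower. With DC at 8 h edgeR called none higher (background 2.75%, with 2 at an unadjusted p under 0.05 and 0 in DESeq2) and 3 were lower, Dusp1, Dusp6 and Dusp10 (4.07%). IF at 22 h gave 1 higher, Spry1 (2.63%), and 2 lower, Dusp1 and Dusp10 (3.44%). DC at 22 h gave none higher (3.41%, with 1 at an unadjusted p under 0.05 and 0 in DESeq2) and 4 lower, Dusp1, Dusp2, Dusp6 and Dusp10 (4.35%). These counts were made on a list chosen with earlier results known and are not independent evidence. The median log2 change over the 9 genes was -0.79, -1.31, -0.46 and -1.17 in these 4 comparisons in that order, against 0.02, 0.04, 0.01 and 0.04 over all tested genes. The 4 comparisons share the untreated libraries. Scaling by library size alone moved the median of all genes up by 0.241, 0.266, 0.205 and 0.330, and the share of calls that were higher from 39.2%, 40.3%, 43.3% and 43.9% to 76.3%, 79.6%, 74.1% and 85.4%. Under it Spred1 also passed with DC at 8 h (adjusted p = 0.0410) and with IF at 22 h (0.0249), and no call listed here was lost.

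**Figure D4:**
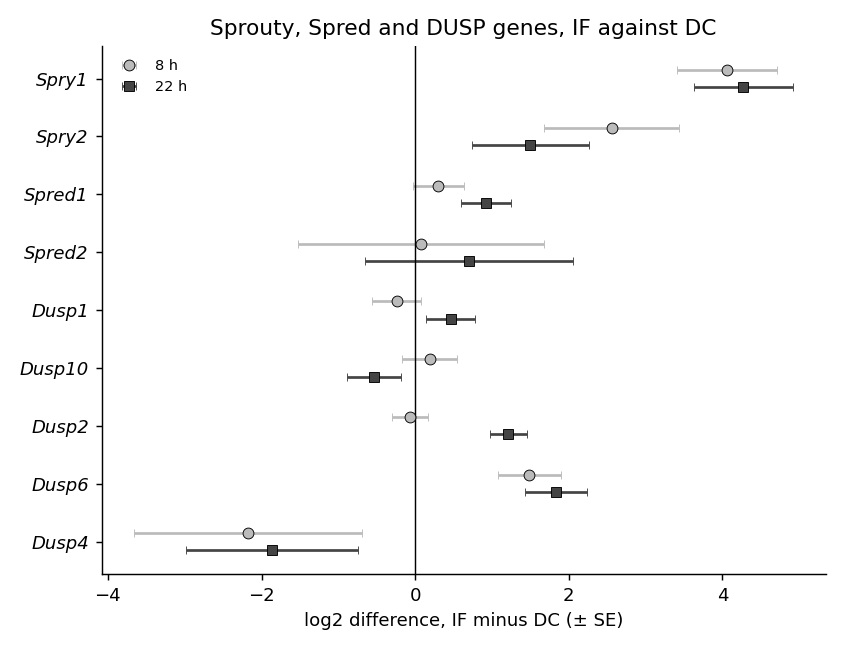
IF minus DC difference on the log2 scale (horizontal axis, bars of 1 SE) for the 9 tested genes at 8 h (light circles) and 22 h (dark squares). Spry1 lies at 4.06 and 4.27, and Dusp2 moves from -0.07 at 8 h to 1.22 at 22 h.

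Between the stimuli no test of the list is drawn on, since a difference of this contrast was known when the list was chosen. The IF libraries lay wholly above the DC libraries at 8 h for Spry1, Spry2 and Spred1 (5.8% of all tested genes) and wholly below for none (7.7%). At 22 h they lay wholly above for Spry1, Spred1, Dusp2 and Dusp6 (10.7%) and wholly below for Dusp10 (9.11%). The median IF minus DC difference of the 9 genes was 0.19 at 8 h and 0.92 at 22 h, against -0.01 and -0.02 over all tested genes. Scaling by library size alone shifted the 22 h median of all genes by -0.126 and the share of its calls that were higher from 50.6% to 32.8%. The list was chosen with a difference of this contrast known, so nothing is read from these shares.

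Between 8 h and 22 h of IF, edgeR called none of the 9 genes, with 0.637% of all tested genes higher and 0.48% lower, and 1 of the 9 had an unadjusted p under 0.05. DESeq2 called none of them either, nor did edgeR without IF 22 h replicates 2 and 3. With DC, Dusp2 was the 1 gene that edgeR called lower (0.102%), while DESeq2 called Dusp1 and Dusp2 and 3 genes were lower at an unadjusted p under 0.05. None was higher (0.379%), with 0 in DESeq2 and 0 at an unadjusted p under 0.05. For the change of the IF minus DC difference with time edgeR called no gene at all (0.0%, smallest adjusted p = 0.0819). At an unadjusted p under 0.05 there were 858 genes, 1 of the list (Dusp2) among them. DESeq2 called 40 genes and none of the list, and edgeR without a low-count filter called 155 genes, Dusp2 among them (1.30 ± 0.28).

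The pathway lists that follow were also chosen with earlier results of these libraries known, so their p-values, between IF and DC above all, are not independent evidence. Of 10 further Sprouty, Spred and DUSP genes 9 were in the tables and 5 were tested, and edgeR called none of them in any of the 9 comparisons. In each comparison 0 to 3 of the 5 had an unadjusted p under 0.05, and DESeq2 made 1 call, Dusp8 as lower with IF at 22 h than in untreated cells. Among 19 tested genes of the Ras and ERK cascade itself, edgeR called none between IF and DC. Over all tested genes 0.231% were higher and 0.434% lower with IF at 8 h, and 1.23% and 1.2% at 22 h. Of the 19, 1 at 8 h and 4 at 22 h had an unadjusted p under 0.05, and DESeq2 called 0 and 1 (Braf, lower with IF). Against untreated cells, 2 of the 19 were higher and 2 lower with IF 8 h (3.04% and 4.72% of all tested genes), 0 and 1 with DC 8 h (2.75% and 4.07%), 1 and 1 with IF 22 h (2.63% and 3.44%) and 0 and 3 with DC 22 h (3.41% and 4.35%). Rps6ka1, a kinase downstream of ERK, fell in all 4, from 163.5 ± 8.17 CPM at 0 h to 85.0 ± 2.16 with IF at 8 h (-0.94 ± 0.15, adjusted p = 0.00111). Rasa1, a GTPase-activating protein of Ras, rose with IF from 27.6 ± 3.22 to 50.6 ± 6.75 CPM at 8 h (0.88 ± 0.21, adjusted p = 0.0179) and to 48.0 ± 8.16 CPM at 22 h (0.80 ± 0.21, adjusted p = 0.0309). Without IF 22 h replicates 2 and 3 the IF 22 h calls of both genes were lost (Rps6ka1 -0.49 ± 0.23, adjusted p = 0.491; Rasa1 1.06 ± 0.29, adjusted p = 0.109).

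Of 12 tested genes of the JNK and p38 cascades, on which Dusp1 and Dusp10 act, between 1 and 2 rose in each comparison with untreated cells and none fell by edgeR, where 2.63% to 3.41% of all tested genes were higher and 3.44% to 4.72% lower. Per comparison 0 to 2 were lower at an unadjusted p under 0.05, and DESeq2 called 1, Mapk14 with DC at 8 h. Mapkapk2, a kinase activated by p38, rose in all 4, from 24.2 ± 1.10 CPM at 0 h to 43.5 ± 7.90 with IF (0.85 ± 0.22, adjusted p = 0.0274) and 46.4 ± 6.51 with DC (0.94 ± 0.22, adjusted p = 0.0149) at 8 h. Between IF and DC edgeR made 1 call, higher at 22 h (1.23% of all tested genes), in Mapk11, the p38 beta kinase. DESeq2 called Mapkapk3 as lower with IF at 8 h, and Mapk11 and Mapk14 as higher at 22 h. Mapk11 was 3.21, 3.71 and 4.80 CPM with IF and 0.683, 1.33 and 0.940 CPM with DC (1.98 ± 0.47, adjusted p = 0.0355). Without IF 22 h replicates 2 and 3 this difference was 1.69 ± 0.70 (adjusted p = 0.839), and Mapkapk2 with IF at 22 h was 1.00 ± 0.31 against untreated cells (adjusted p = 0.170).

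Genes induced through ERK in many cell types moved in both directions, with 15 of the 18 listed tested. Against untreated cells 1 rose (Egr2) and 5 fell with IF at 8 h, 0 and 5 with DC at 8 h, 1 (Egr2) and 6 with IF at 22 h, and 0 and 7 with DC at 22 h by edgeR, beside 2.63% to 3.41% higher and 3.44% to 4.72% lower over all tested genes. DESeq2 called 1 higher for each DC group, and 2 and 1 were higher there at an unadjusted p under 0.05. Fos, Jun and Junb, subunits of AP-1, fell in all 4, as Dusp1 did. Fos went from 218.6, 257.2 and 399.6 CPM at 0 h to 0.455 to 8.56 CPM in the 12 stimulated libraries. The immediate-early genes were not all alike in this: Egr1 was 39.3 to 47.6 CPM at 0 h and 47.4 to 63.0 CPM with IF at 8 h, yet it fell with DC at 22 h (-2.07 ± 0.31, adjusted p = 0.000685), with -0.98 ± 0.30 (0.0586) for DC at 8 h. Egr2 was 2.94 to 14.4 CPM at 0 h and 32.8 to 53.3 CPM with IF at 8 h.

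**Figure D5:**
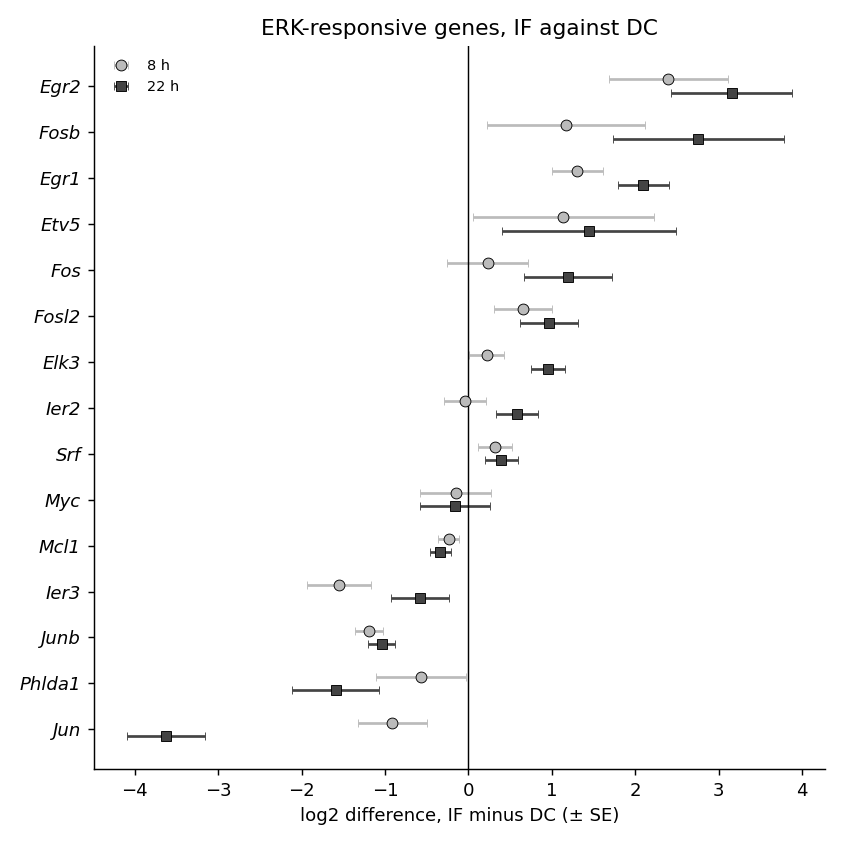
IF minus DC difference on the log2 scale (horizontal axis, bars of 1 SE) for the 15 tested ERK-responsive genes, ordered by the 22 h value, at 8 h (light circles) and 22 h (dark squares). Egr2, Egr1 and Elk3 were higher and Jun and Junb lower with IF at 22 h by the test.

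Between the stimuli at 22 h edgeR called 3 of the 15 higher with IF and 2 lower, where 1.23% and 1.2% of all tested genes were called. DESeq2 called 3 higher and 3 lower, with Mcl1 as the further lower gene. Egr1, an immediate-early transcription factor gene, was 39.0, 47.0 and 47.7 CPM with IF and 7.40, 15.04 and 8.89 CPM with DC (2.10 ± 0.31, adjusted p = 0.00115). Jun was 7.74, 5.74 and 4.03 CPM with IF and 28.2, 135.3 and 48.9 CPM with DC (-3.63 ± 0.47, adjusted p = 0.000491), and Junb was lower too (-1.04 ± 0.17, adjusted p = 0.00246). The Egr genes and Jun were thus apart from each other: the IF libraries lay wholly above DC in Egr1 and wholly below in Jun. Egr2 and Elk3, chosen here after their values were seen, were the other 2 higher genes. Egr2 was 40.4, 51.9 and 62.0 CPM with IF and 1.14, 13.7 and 2.56 CPM with DC (3.16 ± 0.73, adjusted p = 0.0283), and Elk3 differed by 0.95 ± 0.21 (adjusted p = 0.0206). At 8 h edgeR called Junb alone, lower with IF as were 0.434% of all tested genes (-1.19 ± 0.17, adjusted p = 0.00144), while DESeq2 also called Egr1 as higher and Ier3 as lower. None of the 5 passed without IF 22 h replicates 2 and 3, with Egr1 at 1.90 ± 0.41 (adjusted p = 0.147), Egr2 at 2.80 ± 0.91 (0.484), Elk3 at 0.64 ± 0.29 (0.897), Jun at -3.19 ± 0.73 (0.147) and Junb at -1.07 ± 0.26 (0.187). Against untreated cells Fos, Jun and Junb still fell with IF at 22 h in that fit. The other 4 IF 22 h calls were lost: Egr2 (2.53 ± 0.93, adjusted p = 0.304), Fosb (-4.82 ± 1.38, 0.140), Phlda1 (-2.02 ± 0.74, 0.298) and Ier2 (-1.52 ± 0.38, 0.0820). The median IF minus DC difference of the 15 was 0.22 at 8 h and 0.58 at 22 h.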

How the data were processed

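The deposited files hold whole-number counts per gene, 1 table per library, with no total or unassigned rows used. The submitters' processing notes name BWA and the mouse build mm10 without role or version. The counter, annotation, strand setting and use of molecular identifiers are not given in the sources used here, so counting intervals cover counting error only. The genes and lists were chosen with earlier results of these data known.

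Counts were fitted with edgeR 4.0.16 (R 4.3.3): filterByExpr (minimum count 10, minimum total 15), TMM factors, 5 group means over all 15 libraries (10 residual degrees of freedom), glmQLFit and glmQLFTest with prior count 0.125, two-sided, 9 comparisons, each adjusted by Benjamini-Hochberg over 10831 genes. An SE is the fold change divided by the root of F. CPM were computed from the deposited counts with TMM-scaled totals. Alternatives used DESeq2 1.42.0, other scalings, filters, thresholds and sets of libraries. Correlations used log2 CPM with a prior count of 2.

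All 10 genes are reported with their values in every library. From each other list, the 3 genes with the smallest p among those past the threshold could be named per comparison. Egr1, Egr2, Elk3, Dusp8, Braf, Mapk14, Mapkapk3, Ier3, Mcl1, Fosb, Phlda1 and Ier2 fall, in some comparisons, outside that rule and were chosen after their values were seen. For likeness, the 3 genes with the highest r with Spry1 were named. Gene positions come from GENCODE vM21 (GRCm38, which mm10 is) and promoters from RefSeq (GRCm38.p6). Protein sequences were not used here.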

Additional observations from a re-analysis of the deposited data

How the results depend on the processing

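Under 1079 refits of single genes, 59 values took the other sign, and 0 of those were past the threshold in either fit; 27 lost and 22 gained a call. Counts for IF against DC only describe a contrast known when the list was chosen, and nothing is read from them. DESeq2 called 5 of the list for DC 8 h and 5 for IF 22 h against untreated cells, 2 for IF against DC at 8 h and 2 between DC times, beside 1175, 1066, 195 and 210 of all 10831 genes. Without a low-count filter 5 were called for DC 8 h against untreated cells, 2 between DC times and 1 for the change of the IF minus DC difference, beside 1129, 251 and 155 of 17123 genes. At an adjusted p of 0.01, 2 were called for IF 8 h against untreated cells, 1 for IF against DC at 22 h and 0 between DC times. Calls over all genes fell in each of these comparisons too, from 840 to 267 for IF 8 h against untreated cells. With only the groups compared, 1 was called for IF against DC at 22 h and 0 between DC times. All-gene calls fell in both comparisons as well, from 52 to 0 between DC times. Leaving out 1 library gave 2 to 3 for IF 8 h against untreated cells, 1 to 3 for IF against DC at 22 h (1 without IF 22 h replicate 3) and 0 to 2 between DC times. All-gene calls fell in every such fit for IF 8 h against untreated cells. For IF against DC at 22 h they fell without IF 22 h replicate 3, and rose from 263 to 759 without replicate 1. Between DC times they fell in all such fits but that without DC 22 h replicate 3. Without IF 22 h replicates 2 and 3, IF against DC at 22 h gave 0, where the remaining IF library is assumed to vary like the other groups. All-gene calls for IF against DC at 22 h fell in that fit too. The cause of these changes was not tested. With a replicate block the counts were 4, 3, 3 and 4 against untreated cells (IF 8 h, DC 8 h, IF 22 h, DC 22 h), 1 and 3 for IF against DC at 8 h and 22 h, 0 and 1 between IF and DC times, and 0 for the change of the difference, as without it. Over 30 same-numbered pairs of libraries from different groups the correlation of deviations from the group means ran from -0.189 to 0.399, with 4 over 0.1. Its mean was 0.0165, against -0.00845 for pairs with different numbers. With 3 libraries per group these values cannot decide whether a source recurs across groups. Over all genes, the alternatives called 267 to 1299 (840 in the reported fit) for IF 8 h, 307 to 1175 (739) for DC 8 h, 99 to 1101 (658) for IF 22 h and 335 to 1586 (840) for DC 22 h against untreated cells. They called 25 to 215 (72) and 8 to 759 (263) for IF against DC at 8 h and 22 h, 0 to 541 (121) and 0 to 251 (52) between IF and DC times, and 0 to 279 (0) for the change of the difference. Low counts limit Spry2, Spred2, Dusp4 and Dusp5.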
